A study of Mus musculus with 12 samples.

Results

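Transcripts of 10 genes that are used to recognise regulatory T cells, or that these cells use to restrain other lymphocytes, were followed in pancreatic tumours of mice given a kinase inhibitor. The genes were Foxp3, Il2ra, Ikzf2, Ikzf4, Tnfrsf4, Tnfrsf18, Tnfrsf9, Nt5e, Entpd1 and Il10, and their probes were all those on the array that carry 1 of these gene names. They gave 21 probes of 56605, for 10 genes of 37074 gene names. All 10 genes had at least 1 probe well above background on 6 or more of the 12 arrays, and 18 of the 21 probes passed that filter.

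The tumours came from female C57BL/6 mice, given as 8 weeks old, that bore KP tumours grown orthotopically. One group received vehicle (n = 6) and the other FAKi, an inhibitor of focal adhesion kinase, at 50 mg/kg by gavage (n = 6), both for 14 days. Total RNA of tumour tissue was labelled with Cy5 and read on 1-colour Agilent arrays. The labels number the tumours without saying how the pieces were taken or whether each came from a separate mouse. The tests treat the pieces as independent, so p-values set a group difference against the spread between these samples.

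Regulatory T cells are CD4 T cells that hold back immune responses, and in tumours they can limit the killing of tumour cells by other T cells. Foxp3 is the transcription factor that sets their identity, and they depend on interleukin 2, which they bind through a receptor that contains CD25. Among their means of suppression are interleukin 10 and the enzymes CD39 and CD73, which together turn extracellular ATP into adenosine. Except for Foxp3, the genes are also expressed by other cells, such as activated T cells, myeloid cells or stromal cells.

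Levels are log2 signal minus the 75th percentile of log2 signal of the same array, so a value of 0 is a probe as bright as that percentile. They compare tumours for 1 probe and do not rank genes against each other, because probes differ in brightness for the same amount of RNA. That percentile ran from 11.82 to 13.88 over the arrays, with 66.6% to 76.1% of spots read well above background. Marker genes of epithelial cells (6 of 6), fibroblasts (9 of 9), macrophages (7 of 7) and T cells (12 of 12) were well above background on all 12 arrays. Over 27376 genes tested with limma and Benjamini-Hochberg adjustment, 0 passed an adjusted p of 0.05 and 1312 had an unadjusted p under 0.05. Without FAKi 1, 3 genes passed. In a piece of whole tumour, fewer cells of a type and less RNA per cell cannot be told apart.

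Of the 10 genes, 0 passed the adjusted threshold in limma, as did 0% of all genes tested. At an unadjusted p under 0.05 there were 2 of the 10, Nt5e and Ikzf2, both lower in FAKi tumours, where 4.79% of all genes lay under that p in either direction with 2.08% lower and 2.71% higher. The groups overlapped for all 10, and 0.238% of all genes had groups that did not overlap. The estimate was below 0 for 7 and above 0 for 3, with a median difference of −0.05 log2 beside 0.08 over all genes, 39.5% of which had an estimate below 0. For 7 of the 10 the sign turned in at least 1 of up to 27 other fits, and Il2ra, Ikzf2 and Nt5e kept theirs in all of them (values within single slides aside).

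**Figure D1:**
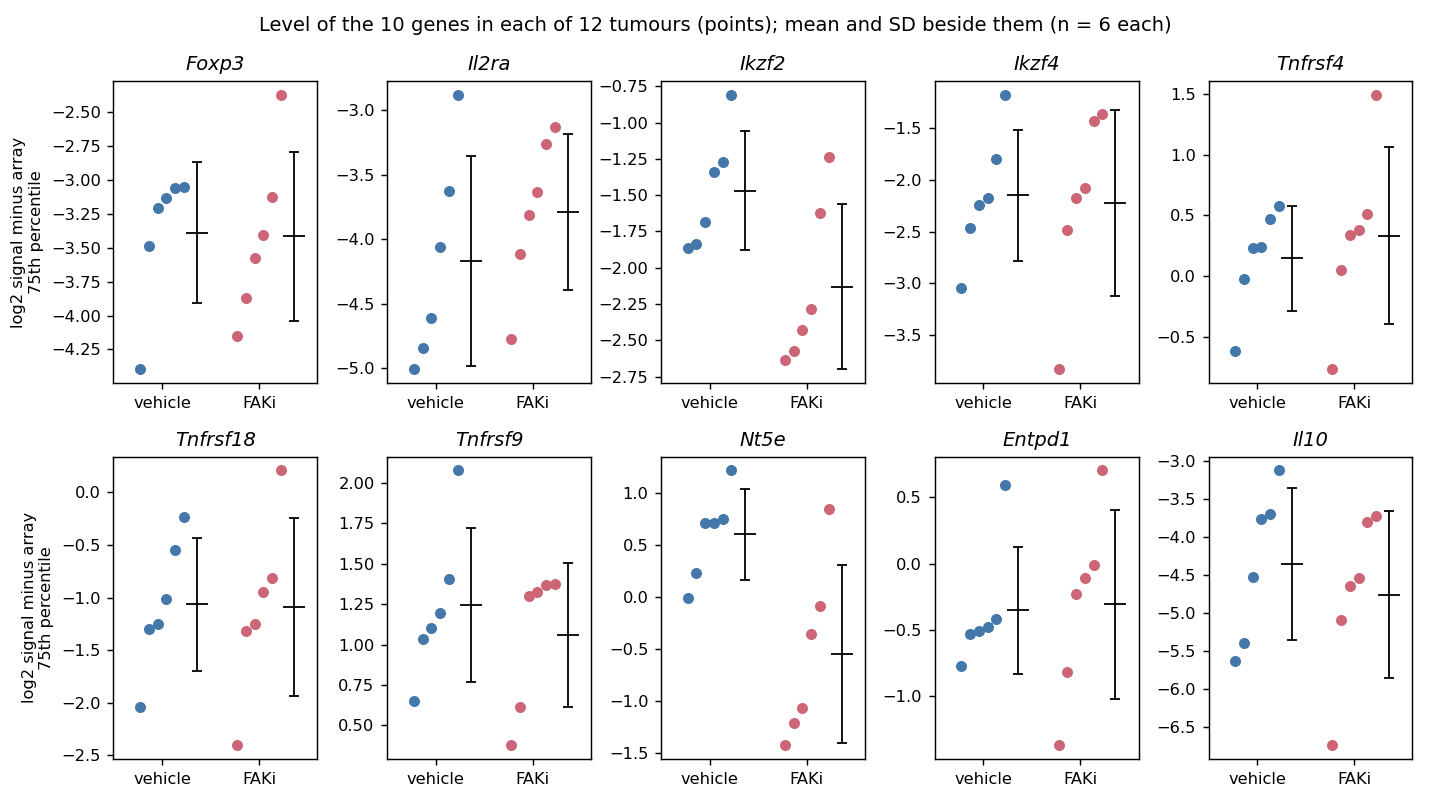
Level of each of the 10 genes (log2 signal minus the array's 75th percentile, vertical axis, own scale per gene) in 6 vehicle and 6 FAKi tumours, drawn as points, with the mean and SD beside them. Nt5e and Ikzf2 are the genes whose FAKi tumours lie mostly below the vehicle tumours, and for each of the others the points of the groups overlap over most of their range.

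The transcription factors come first. Foxp3 was read by 1 probe, for the transcript NM_001199347, on chromosome X from 7172301 to 7172360 (mm9, + strand), which was well above background on all arrays. Its level in vehicle tumours ran from −4.40 through a median of −3.17 to −3.05, and in FAKi tumours from −4.15 through −3.49 to −2.37. The lowest tumour of all was vehicle 1 and the highest FAKi 5, and the groups overlapped over most of their range. The difference, FAKi minus vehicle, was −0.03 log2 (SE 0.33, 95% confidence interval −0.73 to 0.67, limma adjusted p = 0.999, exact permutation p = 0.946), with 4 of 6 FAKi tumours below the vehicle mean. On a linear scale the interval reaches 1.65-fold lower at its low end. The sign of so small a difference was not fixed, and it turned on leaving out any of 7 single arrays, with a range of −0.23 to 0.12. It was 0.90 within slide 1 and −0.77 within slide 4.

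Because Foxp3 marks a part of the T cells, its level was also set against T cell genes within each tumour. The log2 difference between the Foxp3 and Cd3e signals, Cd3e being a chain of the T cell receptor complex, averaged −4.57 ± 0.39 (SD, n = 6) over vehicle tumours and −4.69 ± 0.30 (SD, n = 6) over FAKi tumours. This ratio differed between the groups by −0.12 log2 (exact permutation p = 0.563). Against Cd4, the coreceptor of helper and regulatory T cells, the difference was −0.17 (exact permutation p = 0.526), and against Cd8a, the coreceptor of cytotoxic T cells, −0.10 (exact permutation p = 0.812). After adjustment over these 3 ratios each p was 0.812, and 4 of 6 FAKi tumours lay below the vehicle mean for each. Only the change of such a ratio between tumours can be read, since its level depends on both probes.

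The start-site windows of Foxp3 and, further on, of Tnfrsf4 and Tnfrsf18 are shown because the levels of these 3 genes were correlated across the tumours. Each covers 250 bases before to 50 bases after a start site in RefSeq (GRCm38.p6), printed 5′ to 3′ in lower case, with matches to 6 motifs in capitals. RefSeq windows were matched for 7 of the 10 genes, and Ikzf2, Ikzf4 and Il10 were not among them. The motifs were searched on both strands: a STAT motif, TTCNNNGAA, in 8.30% of all 32851 windows; an NFAT core, GGAAA, in 61.3%; an AP-1 motif, TGANTCA, in 7.81%; a TATA box, TATAAA, in 13.6%; an NF-kB consensus motif in 8.46%; and a forkhead motif, TGTTTAC, in 3.65%. The windows of Foxp3 lie on the + strand at chrX:7579426-7579725 and chrX:7580233-7580532.
Foxp3, first window: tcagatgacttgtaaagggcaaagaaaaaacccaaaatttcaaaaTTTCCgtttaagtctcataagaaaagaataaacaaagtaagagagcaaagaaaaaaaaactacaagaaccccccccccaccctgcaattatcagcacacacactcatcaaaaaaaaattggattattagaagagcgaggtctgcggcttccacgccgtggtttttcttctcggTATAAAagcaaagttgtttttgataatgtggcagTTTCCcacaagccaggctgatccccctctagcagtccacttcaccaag
Foxp3, second window: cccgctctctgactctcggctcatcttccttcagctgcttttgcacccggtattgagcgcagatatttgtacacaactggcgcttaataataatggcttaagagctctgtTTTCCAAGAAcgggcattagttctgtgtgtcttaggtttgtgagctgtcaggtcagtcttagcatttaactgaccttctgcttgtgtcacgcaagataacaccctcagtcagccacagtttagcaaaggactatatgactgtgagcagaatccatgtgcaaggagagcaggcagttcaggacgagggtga
Counting positions from the first base of a window, the first window held 2 NFAT cores, of which the first starts at position 46, and 1 TATA box at position 219. The second held a STAT motif at position 112 that overlapped an NFAT core at position 111, read there on the opposite strand as TTTCC. Matches of letters are a description and do not show binding.

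Ikzf2 encodes Helios, a zinc finger factor of the Ikaros family that many regulatory T cells express. Its brightest probe, for NM_011770 on chromosome 1 from 69578252 to 69578311 (mm9, − strand), read from −1.87 through a median of −1.51 to −0.81 in vehicle tumours and from −2.64 through −2.36 to −1.24 in FAKi tumours. In the FAKi group, 4 of 6 tumours lay below all vehicle tumours, while FAKi 5 and FAKi 6 lay within the vehicle range. The difference was −0.66 log2 (SE 0.29, 95% confidence interval −1.29 to −0.03, limma p = 0.0403, adjusted p = 0.999), or 1.58-fold lower, and the exact permutation test gave p = 0.0519. It was −0.29 within slide 1, −0.98 within slide 4 and −0.63 (limma adjusted p = 0.9999) with slide as a fixed block. The unadjusted p lay above 0.05 with that block, with normexp background correction (−0.51), and on leaving out vehicle 2, 5 or 6 or FAKi 1, 2, 3 or 4.

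A further Ikzf2 probe, for ENSMUST00000187870 and placed further 5′ in the gene at 69728143 to 69728202, did not follow the first across tumours (Pearson r = 0.06, n = 12, as a description). Its difference was −0.35 log2 (SE 0.53, limma adjusted p = 0.978 over the probes), and the mean of both probes gave −0.51 (limma adjusted p = 0.964, with an unadjusted p above 0.05). The remaining Ikzf2 probe, for ENSMUST00000188919, was well above background on 1 vehicle array and 0 FAKi arrays, so it gave no level to compare. Of the 2 probes above background, the brighter alone had an unadjusted p under 0.05.

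Ikzf4 encodes Eos, another Ikaros family factor, which acts with Foxp3 as a repressor. In vehicle tumours its brightest probe, on chromosome 10 from 128069521 to 128069580 (mm9, − strand), read from −3.05 through a median of −2.21 to −1.17, and in FAKi tumours from −3.84 through −2.13 to −1.36. FAKi 3 was the lowest tumour and vehicle 6 the highest, and the groups overlapped almost fully. The difference was −0.08 log2 (SE 0.42, limma adjusted p = 0.999, exact permutation p = 0.879), and it turned to 0.25 without FAKi 3 and to 0.12 without vehicle 6. It was 0.99 within slide 1 and −0.50 within slide 4. The other 3 probes above background gave 0.17, 0.19 and 0.42, so the mean of the probes was above 0 (0.18). Correlations among the 4 probes ran from 0.35 to 0.88 over the 12 tumours.

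Il2ra encodes CD25, the chain that gives the interleukin 2 receptor its high affinity. Its brightest probe, for the clone transcript AK041350 on chromosome 2 from 11570205 to 11570264 (mm9, + strand), read from −5.01 through a median of −4.34 to −2.88 in vehicle tumours and from −4.78 through −3.72 to −3.13 in FAKi tumours. FAKi tumours lay above the vehicle mean in 5 of 6 cases and none lay outside the vehicle range. The difference was 0.38 log2 (SE 0.39, 95% confidence interval −0.45 to 1.22, limma adjusted p = 0.999, exact permutation p = 0.372). It was 1.17 within slide 1 and −0.32 within slide 4.

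The probe for the RefSeq transcript of Il2ra, NM_008367 (11614744 to 11614803), followed a different course across tumours. It was well above background on 5 of 6 arrays of each group, read −9.19 in vehicle 1 and −8.37 in FAKi 3, and lay between −4.87 and −3.71 in the other tumours. Its difference between groups was 0.05 log2 (SE 0.95). The probes had r = −0.17 with each other over 12 tumours, those 2 low readings included. Unless a probe is named, values for Il2ra in the rest of the text are those of the brighter probe.

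The 3 receptors of the TNF receptor family costimulate T cells and are high on regulatory T cells in many tumours. Tnfrsf4, which encodes OX40, was read at NM_011659 on chromosome 4 from 155390639 to 155390698 (mm9, + strand). Its level ran from −0.62 through a median of 0.23 to 0.58 in vehicle tumours and from −0.77 through 0.36 to 1.50 in FAKi tumours. FAKi 3 was the lowest tumour and FAKi 5 the highest, so the vehicle tumours lay inside the FAKi range. The difference was 0.19 log2 (SE 0.34, limma adjusted p = 0.999, exact permutation p = 0.623), and without FAKi 5 it was −0.05, without vehicle 1 0.03 and without FAKi 3 0.41. With slide as a fixed block it was 0.54, with 1.26 within slide 1 and −0.18 within slide 4.

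Tnfrsf18, which encodes GITR, has its probe 12.3 kb away from that of Tnfrsf4, at NM_009400 from 155402941 to 155403000, and no protein-coding gene lies between the 2 genes in RefSeq. It read from −2.04 through a median of −1.13 to −0.24 in vehicle tumours and from −2.40 through −1.10 to 0.21 in FAKi tumours. FAKi 3 was again the lowest and FAKi 5 the highest tumour, with the vehicle tumours between them. The difference was −0.02 log2 (SE 0.40, limma adjusted p = 0.999, exact permutation p = 0.978), and its sign turned on leaving out any of 5 single arrays, with a range of −0.28 to 0.24. With slide as a fixed block it was 0.66 (limma adjusted p = 0.9999), with 1.11 within slide 1 and 0.21 within slide 4.

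The start-site windows of these neighbours lie on the + strand of chromosome 4 at chr4:156013445-156013744 for Tnfrsf4 and chr4:156026072-156026371 for Tnfrsf18, from the same RefSeq table, with the same motifs in capitals.
Tnfrsf4: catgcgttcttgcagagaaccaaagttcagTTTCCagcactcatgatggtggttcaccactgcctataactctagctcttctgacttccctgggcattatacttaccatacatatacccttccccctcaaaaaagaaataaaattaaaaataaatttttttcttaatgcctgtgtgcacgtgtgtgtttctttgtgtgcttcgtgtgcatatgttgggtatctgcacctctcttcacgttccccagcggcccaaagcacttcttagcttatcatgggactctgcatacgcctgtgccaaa
Tnfrsf18: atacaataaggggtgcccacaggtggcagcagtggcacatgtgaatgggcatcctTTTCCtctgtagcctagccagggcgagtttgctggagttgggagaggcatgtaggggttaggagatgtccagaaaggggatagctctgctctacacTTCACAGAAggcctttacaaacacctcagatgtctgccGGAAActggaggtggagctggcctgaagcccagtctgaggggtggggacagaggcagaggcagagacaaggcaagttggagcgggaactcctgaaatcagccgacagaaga
The Tnfrsf4 window held 1 NFAT core, at position 31. The Tnfrsf18 window held a STAT motif at position 152 and 2 NFAT cores, the first at position 56. Over the 10 windows of the 7 genes, the STAT motif was in 3, the NFAT core in 8, the NF-kB motif in 2, the AP-1 motif and the TATA box in 1 each, and the forkhead motif in 0. Where a motif was not found, only its letters are missing from the window.

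Tnfrsf9, which encodes 4-1BB, was read by 2 probes for NM_011612 on chromosome 4 that moved together (Pearson r = 0.80, n = 12). The brighter, from 150320145 to 150320204 (mm9, + strand), ran from 0.65 through a median of 1.15 to 2.08 in vehicle tumours and from 0.38 through 1.31 to 1.38 in FAKi tumours. FAKi 3 and FAKi 4 lay below all vehicle tumours and vehicle 6 above all others, and the remaining tumours overlapped. The difference was −0.18 log2 (SE 0.28, limma adjusted p = 0.999, exact permutation p = 0.532), and the other probe gave 0.10. It was −0.018 without vehicle 6, −0.048 without FAKi 4 and −0.09 without FAKi 3, and 0.10 with slide as a fixed block.

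**Figure D2:**
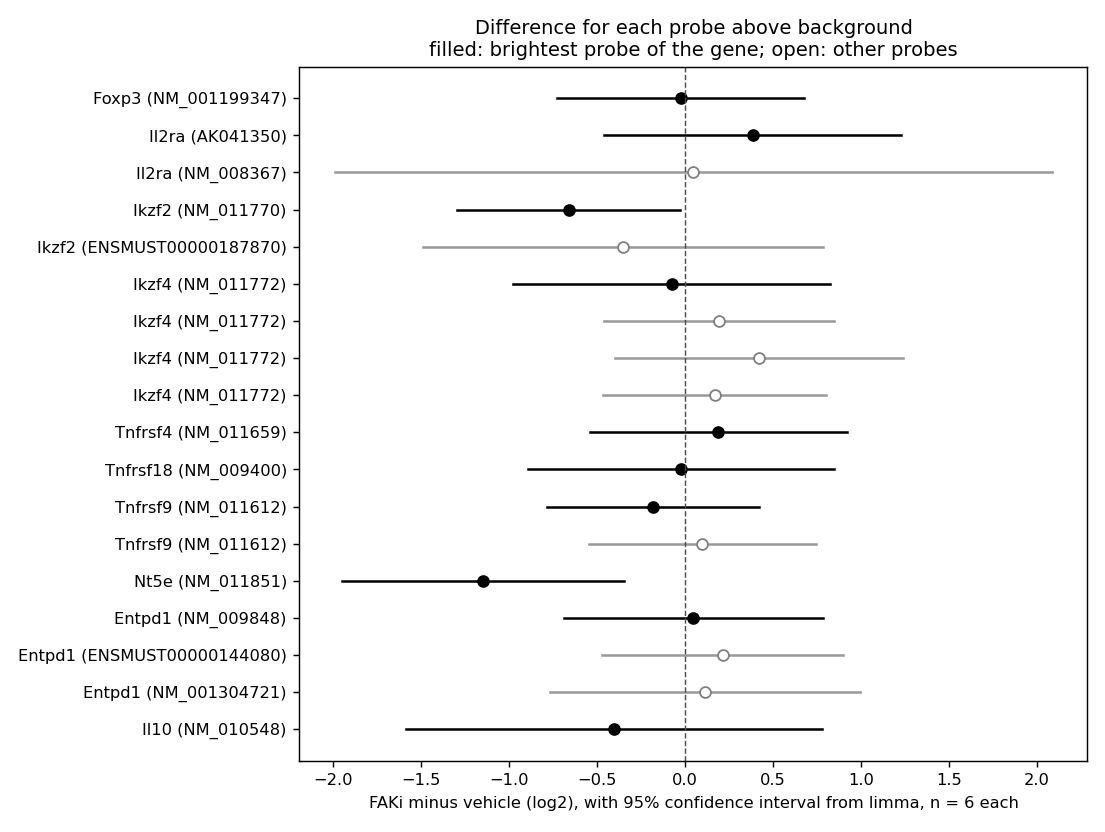
Difference between FAKi and vehicle tumours (log2, horizontal axis) for each of the 18 probes above background, with the 95% confidence interval from limma, n = 6 in each group. Filled points are the brightest probe of a gene, and only the intervals of Nt5e and of the brightest Ikzf2 probe lie below 0.

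The enzymes of the adenosine pathway followed separate courses. Nt5e encodes CD73, which makes adenosine from AMP, and it had the largest difference among the 10 genes. Its probe for NM_011851, on chromosome 9 from 88266616 to 88266675 (mm9, + strand), read from −0.01 through a median of 0.71 to 1.21 in vehicle tumours and from −1.42 through −0.71 to 0.84 in FAKi tumours. In the FAKi group 5 of 6 tumours lay below every vehicle tumour, and FAKi 1, at 0.84, lay above all vehicle tumours but vehicle 1. The difference was −1.15 log2 (SE 0.37, 95% confidence interval −1.95 to −0.35), or 2.22-fold lower with an interval of 1.27-fold to 3.86-fold. The limma p was 0.00819 and the adjusted p 0.918, and the exact permutation test gave p = 0.0238, where the smallest p this design allows is 0.0022. Of all genes tested, 0.869% had a smaller limma p.

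Of the 5 slides, slides 1 and 4 held arrays of both groups. Within slide 1 FAKi 5 differed by −2.15 log2 from the mean of vehicle 3 and vehicle 5, and within slide 4 FAKi 1 differed by 0.73 from the mean of vehicle 2 and vehicle 6. With slide as a fixed block, which compares the groups on those slides alone, the difference was −0.71 (limma adjusted p = 0.9999) and its unadjusted p lay above 0.05. The other slides held 1 group each. Leaving out single arrays gave −1.43 to −0.98, the lower value without FAKi 1 (limma adjusted p = 0.208).

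The level of Nt5e was higher on brighter arrays within each group. Its Pearson r with the array's 75th percentile was 0.83 over the vehicle arrays and 0.87 over the FAKi arrays (n = 6 each, as a description), and 0.46 over all 12 (permutation p = 0.139, adjusted over 11 such relations 0.391; Spearman rho 0.64). With each group's mean removed, r over the 12 arrays was 0.61 (permutation p = 0.0391, not adjusted). Without vehicle 6 and vehicle 1, the arrays farthest from the median percentile, r was 0.70. The percentile lay between 11.82 and 13.88 in vehicle and between 12.82 and 13.42 in FAKi arrays, so the groups overlapped in it, and its part in the difference was not tested. None of the 11 relations of the 10 genes or the T cell marker mean with this percentile passed adjustment. Such values within groups were not particular to Nt5e. Over vehicle and FAKi arrays r was −0.90 and −0.32 for Ikzf4, −0.79 and 0.10 for Tnfrsf9, and −0.50 and −0.65 for Ikzf2. Nt5e had r = 0.01 with the fibroblast markers, 0.01 with the macrophage markers and −0.32 with the T cell markers, each over 12 tumours, and the lowest adjusted permutation p of these was 0.672. The other Nt5e probe, for ENSMUST00000186789, was well above background on 2 arrays of each group and was not used.

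Entpd1 encodes CD39, which breaks ATP and ADP down to AMP, the substrate of CD73. Its brightest probe, for NM_009848 on chromosome 19 from 40814006 to 40814065 (mm9, + strand), read from −0.77 through a median of −0.49 to 0.59 in vehicle tumours and from −1.37 through −0.17 to 0.70 in FAKi tumours. Vehicle 5 stood apart from the other vehicle tumours at 0.59, the next of which read −0.42, FAKi 5 was the highest and FAKi 6 the lowest, and the groups overlapped. The difference was 0.05 log2 (SE 0.34, limma adjusted p = 0.999, exact permutation p = 0.903), and it turned to −0.16 without FAKi 5. With slide as a fixed block it was 0.57 (limma adjusted p = 0.9999), with 0.64 within slide 1 and 0.51 within slide 4. A probe for NM_001304721 in the same region gave 0.11 and moved with the first (Pearson r = 0.75, n = 12), whereas the dim probe for ENSMUST00000144080 did not (r = −0.42) and gave 0.21.

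Il10 encodes the suppressive cytokine interleukin 10, which macrophages and B cells also make. Its probe for NM_010548, on chromosome 1 from 132920943 to 132921002 (mm9, + strand), was well above background on 5 of 6 arrays in each group. The level ran from −5.63 through a median of −4.14 to −3.12 in vehicle tumours and from −6.74 through −4.59 to −3.73 in FAKi tumours. FAKi 4 was the lowest tumour and vehicle 5 the highest, with wide overlap. The difference was −0.40 log2 (SE 0.55, 95% confidence interval −1.58 to 0.77, limma adjusted p = 0.999, exact permutation p = 0.522). Without FAKi 4 it was −0.0084 and without vehicle 5 −0.16. With slide as a fixed block it turned to 0.42, with 0.10 within slide 1 and 0.74 within slide 4. Its SE was the largest of the 10, where the others ran from 0.28 to 0.42.

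How the 10 genes varied from tumour to tumour was then set against 3 marker means, those of T cells (12 genes), macrophages (7 genes) and fibroblasts (9 genes), which gave 30 relations over 12 tumours. The T cell mean lay between −1.62 and −0.50 in vehicle and between −1.92 and 0.39 in FAKi tumours (exact permutation p = 0.978), so the groups overlapped in it. Of the 30 relations 5 passed adjustment. Tnfrsf4 followed the T cell mean most closely (Pearson r = 0.92, Spearman rho 0.86, adjusted permutation p = 0.00105), then Tnfrsf18 (r = 0.92, rho 0.78, adjusted permutation p = 0.00105), Foxp3 (r = 0.87, rho 0.70, adjusted permutation p = 0.0046) and Ikzf4 (r = 0.79, rho 0.85, adjusted permutation p = 0.0191). By rank, Tnfrsf4, Tnfrsf18 and Ikzf4 passed (adjusted permutation p = 0.0132, 0.0431 and 0.0132) and Foxp3 did not (0.0741), nor did Entpd1 with the macrophage mean (0.0633). The other 3 Ikzf4 probes had r of 0.08, 0.53 and 0.89 with the T cell mean, as a description. Of 27250 genes, 0.0330% had at least the r of Tnfrsf4, 0.0440% that of Tnfrsf18, 0.103% that of Foxp3 and 0.455% that of Ikzf4.

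These relations rest in part on the tumours with the most and the least T cell signal, FAKi 5 (0.39) and FAKi 3 (−1.92). Without both, r was 0.75 for Tnfrsf4, 0.80 for Tnfrsf18, 0.73 for Foxp3 and 0.65 for Ikzf4, and none of these 4 passed. Over all 30 relations, each without the 2 tumours farthest from the median of its own marker mean, 0 passed (lowest adjusted permutation p = 0.0895). Leaving out 1 tumour at a time, the lowest r was 0.86, 0.88 and 0.80 for Tnfrsf4, Tnfrsf18 and Foxp3, each without FAKi 5, and 0.70 for Ikzf4 without FAKi 3. Within groups r for Foxp3 was 0.85 in vehicle and 0.91 in FAKi tumours (n = 6 each, as a description). Slides held 1 to 3 arrays, too few for a value within slides.

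Entpd1 instead followed the macrophage mean (r = 0.85, rho 0.73, adjusted permutation p = 0.0069), with r = 0.69 for the fibroblast mean (rho 0.67, adjusted permutation p = 0.0645) and r = 0.40 for the T cell mean. At least this r was reached by 0.437% of 27255 genes. Without vehicle 5 and vehicle 1, the tumours with the highest and the lowest macrophage mean (4.87 and 3.01), r was 0.83 (adjusted permutation p = 0.0895), so that relation also missed the threshold without them. The other Entpd1 probes had r = 0.50 (NM_001304721) and −0.40 (ENSMUST00000144080) with the same mean, as a description. By the brightest probe of each, Il2ra, Ikzf2, Tnfrsf9, Nt5e and Il10 had no relation past adjustment with any of the 3 means. The difference between these genes and the 5 that passed was not tested. The Il2ra probe for NM_008367 had r = 0.71 with the T cell mean, as a description, its low readings in vehicle 1 and FAKi 3 included. For the other probes of Tnfrsf9 and Ikzf2 above background, r with the T cell mean was 0.57 and 0.45, also as a description.

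**Figure D3:**
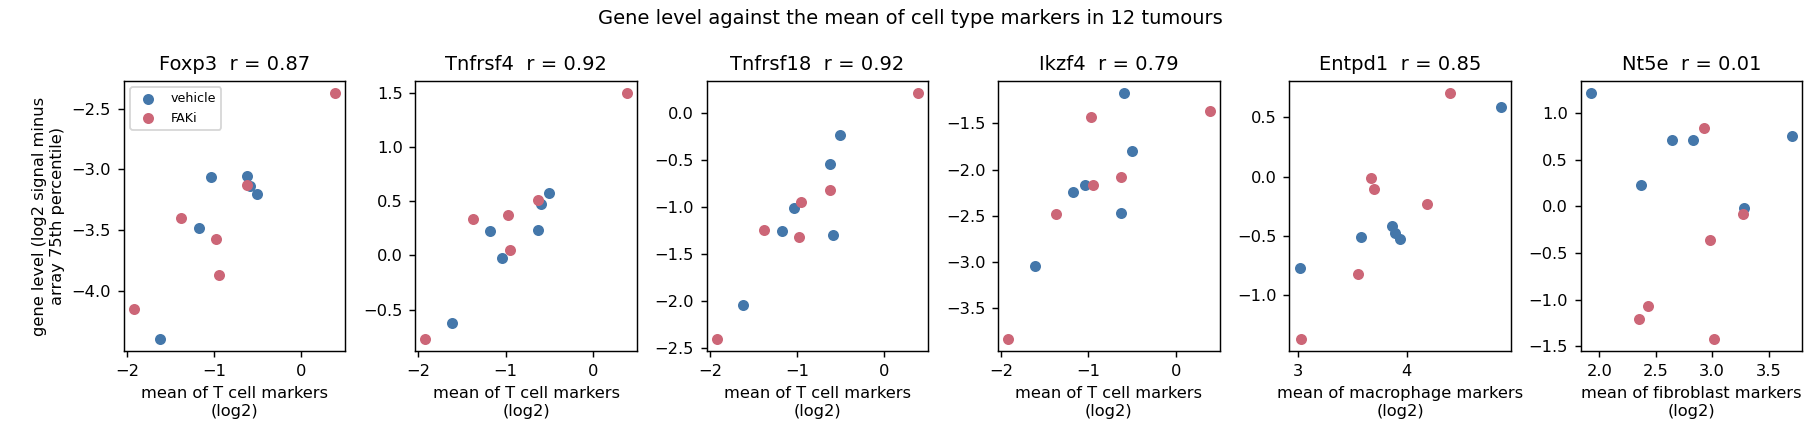
Level of Foxp3, Tnfrsf4, Tnfrsf18 and Ikzf4 against the mean of the T cell markers, of Entpd1 against the mean of the macrophage markers and of Nt5e against the mean of the fibroblast markers (log2 signal minus the array's 75th percentile on both axes), 1 point per tumour, 6 vehicle and 6 FAKi. In the first 5 panels the level rises with the marker mean in both groups, with FAKi 5 at the upper right of the 4 T cell panels. Whether the groups share a slope was not tested. Nt5e shows no slope over the 12 tumours (r = 0.01).

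Among the 45 pairs of the 10 genes, 4 passed adjustment over the pairs, all of them within the set Foxp3, Tnfrsf4, Tnfrsf18 and Ikzf4. Foxp3 had r = 0.88 with Tnfrsf4 (rho 0.61) and 0.85 with Tnfrsf18 (rho 0.76), the 2 receptors had r = 0.88 with each other (rho 0.65), and Ikzf4 had r = 0.82 with Tnfrsf4 (rho 0.79). Their adjusted permutation p ran from 0.00945 to 0.0192. By rank correlation 1 pair passed, Ikzf4 with Tnfrsf9, and without the 2 farthest tumours 0 did; Foxp3 with Tnfrsf4 then had r = 0.71 and Foxp3 with Tnfrsf18 0.71. Among 27262 other genes ordered by their r with Foxp3, Tnfrsf4 stood at place 9 and Tnfrsf18 at place 25. By their brightest probes, Ikzf2 stood at place 8454 and Il2ra at place 14426. The place of the Il2ra probe for NM_008367 was not computed. That probe read lowest in vehicle 1 and FAKi 3, where Foxp3 was lowest as well. Nt5e had r of −0.48 with Foxp3 and −0.55 with Tnfrsf4, neither past adjustment.

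**Figure D4:**
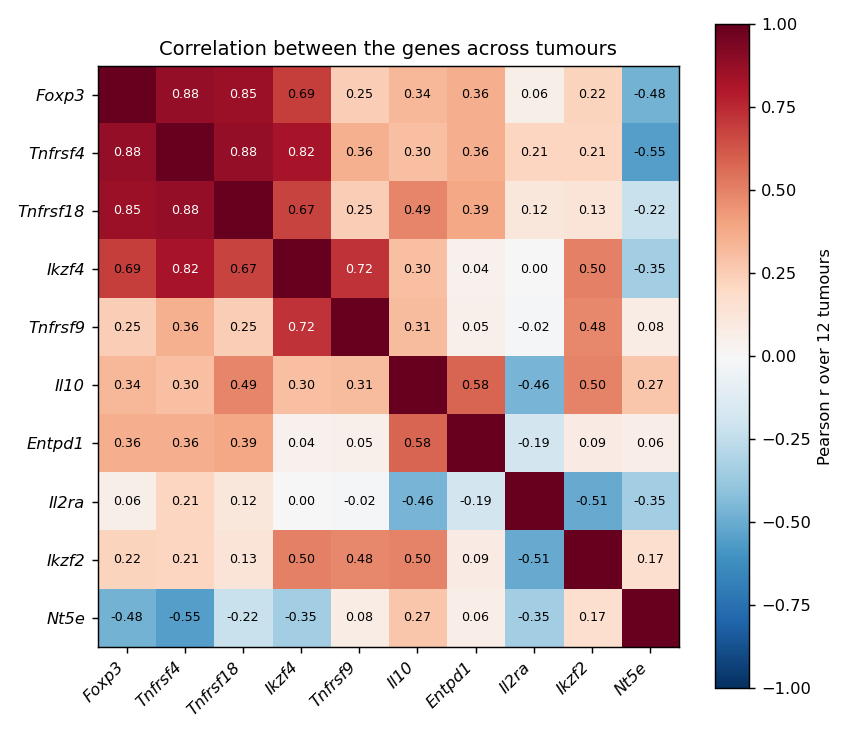
Pearson r between the levels of the 10 genes over 12 tumours, with red for r above 0 and blue for r below 0. The order of the genes was chosen, with Foxp3, Tnfrsf4, Tnfrsf18 and Ikzf4 at the upper left (0.67 to 0.88 among them). Nt5e has values below 0 with each of them. Outside that block, Ikzf4 has r = 0.72 with Tnfrsf9.

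The named genes with the closest pattern over the 12 tumours, among 16603 searched, are given as a description. For Foxp3 they were Icos, a costimulatory receptor of T cells (r = 0.93), Ccr3 (0.92) and Bspry (0.90), and for Tnfrsf4 Cd5, a T cell surface receptor and itself 1 of the T cell markers (0.96), Ptprcap (0.93) and Icos (0.93). Tnfrsf18 lay closest to H2-Ab1, an MHC class II chain (0.92), Klk1 (0.92) and Mmp25 (0.92), and Ikzf4 to Ppp4r4 (0.92), Sh2d2a (0.91) and Notch3 (0.91). Entpd1 lay closest to Lcp1, an actin-bundling protein of leukocytes (0.94), Ptpn7 (0.94) and Il10ra, a chain of the interleukin 10 receptor (0.94).

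For Nt5e the closest were Gal3st4 (0.93), Ostf1 (0.90) and Pxmp2 (0.90), and for Ikzf2 Mtmr1 (0.92), Kif13b (0.90) and Zfp91 (0.89). Tnfrsf9 lay closest to Vmn2r89 (0.93), Olfr570 (0.89) and Grik2 (0.88), and Il2ra to Lincpint (0.88), Vmn1r216 (0.86) and Cps1 (0.86). Il10 had the lowest of these values, with C3, the central complement component (0.86), Fbxl7 (0.85) and Sytl4 (0.83).

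The genes around the 10 members were read from 7 lists, for regulatory T cell genes outside the 10, interleukin 2 and interleukin 10 signalling, the TNF family, the adenosine pathway, the Ikaros family and chemokines that attract regulatory T cells. Of 75 listed genes 71 were measured, that is, had a probe under that name that passed the filter. Itgb8, Ccr4, Il12a and Ccl22 had none, and whether the array lacks a probe for them or it was too dim is not given here. None of the 71 passed the adjusted threshold in limma, and 6 had an unadjusted p under 0.05, or 8.45% beside 4.79% of all genes, of which 2 read higher and 4 lower after FAKi. The median difference over the 71 was −0.03 log2.

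Among 24 measured genes associated with regulatory T cells outside the 10, the estimate was above 0 for 11 and below 0 for 13. At an unadjusted p under 0.05, 1 was higher and 2 were lower. The list was not sorted by whether a gene is high or low in these cells, so the counts are a description. Satb1, a chromatin organiser of T cells, differed by 1.94 log2 (SE 0.62, limma adjusted p = 0.918), and 5 of the 6 FAKi values exceeded the vehicle mean. Gata3, a transcription factor of T helper cells that epithelial cells also express, differed by −1.25 (SE 0.40, limma adjusted p = 0.918), with 6 of 6 below the vehicle mean. The other was Itgae, the integrin chain CD103, at −1.02 (SE 0.37, limma adjusted p = 0.999). It was named after its values were seen, as were Ctla4, a checkpoint receptor of regulatory T cells, at 0.45 (SE 0.29), and Ccr8, a chemokine receptor of regulatory T cells in tumours, at 0.48 (SE 0.41). For both, 6 of 6 FAKi tumours exceeded the vehicle mean. Runx1 (−0.29, SE 0.27) and Lrrc32 (−0.27, SE 0.28), also named after their values were seen, lay below it in 6 of 6, as Gata3 did. None of Ctla4, Ccr8, Runx1 and Lrrc32 had an unadjusted p under 0.05. How many of all genes had 6 of 6 on 1 side was not counted. Other receptors of the list, likewise named after their values were seen, went both ways. Il1rl1 read −0.76 (SE 0.40), Nrp1 −0.39, Tigit −0.07, Izumo1r 0.01, Gpr83 0.09, Icos 0.16 and Klrg1 0.46.

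Of the 13 adenosine pathway genes measured, 1 was higher and 1 lower at an unadjusted p under 0.05. Adora2a, an adenosine receptor of lymphocytes, differed by −0.91 log2 (SE 0.39, limma adjusted p = 0.999; 6 of 6 below the vehicle mean), and Entpd2, an enzyme related to CD39, by 0.61 (SE 0.27, limma adjusted p = 0.999), with 5 of 6 above. In the TNF family list 1 of 10 was lower and none higher. That gene was Tnfrsf25, the death receptor DR3 (−0.75, SE 0.24, limma adjusted p = 0.918), and Tnfsf4, the ligand of OX40, read 0.93 (SE 0.58). The ligands of GITR and 4-1BB, Tnfsf18 and Tnfsf9, read 0.58 (SE 0.55) and −0.13 (SE 0.31), and are named as ligands of members after their values were seen.

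The interleukin 2 list (10 genes), the interleukin 10 list (7), the Ikaros family (3) and the chemokines (4) held none with an unadjusted p under 0.05. The smallest p in each belonged to Jak3 (0.48, SE 0.32) and Socs1 (0.44, SE 0.38), to Maf (−0.47, SE 0.40) and Socs3 (−0.16, SE 0.25), to Ikzf1 (−0.47, SE 0.47) and Ikzf3 (−0.20, SE 0.37), and to Ccl20 (−0.26, SE 0.26) and Ccl28 (−0.07, SE 0.37). The means of 9 marker lists differed between the groups with exact permutation p from 0.154 for dendritic cells to 0.978 for T cells. One of the lists was for lymph node stroma and follicles (exact permutation p = 0.409), the others for cell types that a tumour piece can hold. In the lymph node list Ccl21a, named after its values were seen, ran from −5.07 to 4.35 over the 12 tumours. Whether some pieces held lymph node tissue was not tested. For dendritic cells 5 of 5 measured markers and for endothelial cells 6 of 6 had an estimate below 0, where 39.5% of all genes did. For CD8 T and NK cells 7 of 7 had one above 0. The exact permutation p of the marker mean was 0.255 for endothelial cells and 0.368 for CD8 T and NK cells, so these counts are a description. The single markers with an unadjusted limma p under 0.05 were Gzmb of CD8 T and NK cells (1.35, SE 0.57), Cdh5 of endothelial cells (−1.05, SE 0.37) and Cd79b of B cells (−0.66, SE 0.30). They were named after their values were seen, and none passed adjustment. Of 5 B cell markers, 3 had an estimate above 0 and 2 below. The mean of the CD8 T and NK cell markers lay between −1.98 and −0.93 in vehicle and between −2.03 and 0.26 in FAKi tumours, with FAKi 5 highest. Their part in the values of the 10 genes was not tested beyond the T cell mean, with which as a covariate Nt5e differed by −1.14 and Ikzf2 by −0.67 (limma adjusted p = 0.993 and 0.999).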

How the data were processed

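The authors' intensity values are those of Agilent Feature Extraction 11.5.1.1, with background subtracted and each array detrended, per the file headers; the multiplicative detrending changed 0% of spots on FAKi 1 and FAKi 6 and 96.0% to 98.5% on the others. FAKi 6 lay alone on its slide and its file names no genome build, where the others name mm9. The log2 table deposited by the authors (38569 probes, all 21 of the member probes) correlated with its own arrays at r of at least 0.9965, with column medians of 10.71 to 10.9. The submitters' processing notes name limma and no version of it. How that table was normalized is not stated in any source used here.

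From the red processed signal, log2 values minus the array's 75th percentile of spots that are not controls were averaged per probe without outlier spots (71 to 156 per array). Probes well above background on at least 6 of 12 arrays were kept (40460), and a gene was its brightest kept probe by mean. Groups, 6 arrays each, were compared with limma 3.58.1 (lmFit and eBayes) over 27376 genes with Benjamini-Hochberg adjustment, and for single genes by exact two-sided permutation over 924 splits. Correlations used 100000 resamples. The number of arrays limits the precision.

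Named were the 10 members, 2 genes of smallest p per related list and 3 nearest patterns per member, besides genes marked in the text as named after their values were seen. Members and lists were chosen with earlier results of these data known. Pairs of members, array brightness, rank correlation, ratios of Foxp3 to T cell genes, the T cell covariate, the signal before multiplicative detrending and the fit without vehicle 6 and FAKi 6 were added once the data were known. The other alternatives covered normalization, centring, background, filter, probe summary, weights, variance model, slide, replicate block and single arrays. Exon or UTR positions of probes were not analysed here. The procedures were tested on simulated data. Figures and motif searches used Python 3.11.15.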

Additional observations from a re-analysis of the deposited data

Results flagged for a closer look

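Each member was examined for single tumours that stand apart in a group of 6, by the gap to the nearest tumour over the range of the group. This picked 2 of 20 groups, where chance picks about 1.

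Foxp3 in vehicle 1 read −4.40, with the next vehicle tumour at −3.49. The T cell marker mean of vehicle 1 was −1.62, the lowest of the vehicle tumours, and its array was the brightest of the 12, with a 75th percentile of 13.88. The part of either in the Foxp3 value was not tested.

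Entpd1 in vehicle 5 read 0.59, with the next vehicle tumour at −0.42. The macrophage marker mean of vehicle 5 was 4.87 and its fibroblast marker mean 3.71, both the highest of the 12 tumours, and its epithelial marker mean of 3.16 was the lowest. The part of these in the Entpd1 value was not tested.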

How the results depend on the processing

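Under all alternatives run, the lowest limma adjusted p of the 10 genes was 0.129, for Nt5e with array weights, so none passed 0.05. Over all genes, 4 passed with array weights (5169 at an unadjusted p under 0.05) and 0 to 3 without single arrays, the 3 without FAKi 1; without vehicle 6, 0 passed and 3776 had an unadjusted p under 0.05. Of the 30 marker relations, 3 passed by rank (Foxp3 and Entpd1 did not) and 0 without the 2 farthest tumours, against 5. With each group's mean removed, the same 5 passed (adjusted permutation p from 0.0009 to 0.0172). Values turned sign as follows, with the cause not tested. With normexp: Foxp3 0.013, Ikzf4 0.026, Tnfrsf18 0.016. With slide as a fixed block: Foxp3 0.063, Ikzf4 0.25, Tnfrsf18 0.66, Tnfrsf9 0.10, Il10 0.42. Otherwise Tnfrsf18 with slide as a random block (0.0045) or before multiplicative detrending (0.0076), Ikzf4 as the mean of its probes (0.18) and Foxp3 without vehicle 6 and FAKi 6 (0.056) did so. Leaving out single arrays gave ranges across 0 for Foxp3 (−0.23 to 0.12), Ikzf4 (−0.26 to 0.25), Tnfrsf4 (−0.045 to 0.41), Tnfrsf18 (−0.28 to 0.24) and Entpd1 (−0.16 to 0.26). Nt5e ran from −1.43 to −0.98 and kept an unadjusted p under 0.05 in 12 of 12, and Ikzf2 from −0.84 to −0.53 with 5 of 12.

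The labels do not say whether the replicate numbers pair the tumours, and the main fit did not pair them. Same-numbered tumours correlated in their deviations from −0.12 to 0.48. Vehicle 1 and vehicle 6 correlated best with the FAKi tumour of their own number (r = 0.17 and 0.48), and the other vehicle tumours with one of another number. These values cannot settle whether the numbers mark pairs. The fit with the replicate block called 0 genes, with 1669 under an unadjusted p of 0.05, and gave Nt5e −1.15 (limma adjusted p = 0.749) and Ikzf2 −0.66 (limma adjusted p = 0.799). Il10, not well above background on all arrays, has no value under the filter that asks for 12 of 12. Standard errors of 0.28 to 0.55 limit what could be seen, and the Il2ra, Ikzf2, Ikzf4 and Entpd1 probes disagree among themselves.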
